A study of Mus musculus with 6 samples.

Results

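The genes described here encode apolipoproteins, the other carrier proteins of blood plasma, and the enzymes that act on plasma lipoproteins. A list of 31 genes was read from Affymetrix Mouse Genome 430 2.0 arrays, and 29 of them had a probe set paired with that gene alone; the hepatic lipase gene Lipc and the vitamin D binding protein gene Gc did not, and were not analysed here. The 29 were tested among 8554 genes in all, and each passed the filter on low values through both groups, with mean log2 values from 8.79 to 15.4. RNA came from whole liver of C57BL/6 mice, taken 18 hours after surgical removal of most of the liver (partial hepatectomy). Cre plus mice (n = 3 arrays, A, B and C) were Socs3 fl/fl and Alb-Cre+, with a Cre recombinase transgene driven by the albumin promoter, and so lacked Socs3 in hepatocytes. Cre minus mice (n = 3 arrays, A, B and C) were Socs3 fl/fl, Alb-Cre- littermates. Both groups had the floxed alleles and the surgery in common, no array was from before surgery, and the Cre transgene and the loss of Socs3 cannot be told apart. The labels give no age, and they do not say that each array is a separate mouse, so the p-values measure the spread between these arrays, which may be partly technical.

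Hepatocytes secrete most plasma proteins. Apolipoproteins wrap and direct lipoproteins: APOB is the backbone of very low density lipoprotein (VLDL), APOA1 of high density lipoprotein (HDL), and the smaller apolipoproteins switch lipases and receptors on or off. Albumin, transthyretin, retinol binding protein and their relatives carry fatty acids, hormones and vitamins. Several of these genes, among them Alb, Ttr, Rbp4, Ahsg and Apoa1, are known as negative acute phase genes, because the liver makes less of their protein in inflammation, when IL-6 family cytokines act through STAT3. SOCS3 is a feedback inhibitor of that signal.

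The arrays were alike in level, with medians of 2.98 to 3.02. Pairs of Cre minus arrays correlated at 0.995 over the genes tested, pairs of Cre plus arrays at 0.987 to 0.990 and pairs across groups at 0.982 to 0.993. Cre plus B was nearer to the Cre minus arrays than to the other Cre plus arrays. Socs3, the targeted gene, was at 24.9% of its Cre minus signal in Cre plus, with all 3 Cre plus arrays below all Cre minus arrays (adjusted p = 0.0732, limma).

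Most of the genes had slightly lower values in Cre plus livers, and none passed the test across all genes. Of the 29, 24 had a lower and 5 a higher mean in Cre plus than in Cre minus (82.8% lower, against 53.5% of all genes tested). The 5 higher ones were Agt, Vtn, Apoa5, Clu and, at a difference of 0.00, Apob. The median log2 fold change of the 29, Cre plus minus Cre minus, was -0.10, against -0.01 over all genes tested. At an adjusted p under 0.05 (limma with Benjamini-Hochberg adjustment over all genes) 0 of the 29 passed, as did 0.0234% of all genes, and the smallest adjusted p was 0.164. At an unadjusted p under 0.05, limma listed 5 lower members (17.2%, against 8.21% of all genes), namely Rbp4, Apoc4, Ahsg, Hrg and Azgp1, and 0 higher members (6.62% of all genes were higher). In 9 of the 29 (31.0%, against 11.9% of all genes) every Cre plus array lay below every Cre minus array, and in 2 (6.90%, against 9.21%) every Cre plus array lay above. The 9 were Rbp4, Apoc4, Ahsg, Hrg, Azgp1, Apoc3, Pon1, Pltp and Ttr, and the 2 were Vtn and Apoa5. The count of 9 was 14 without Cre minus B, 15 without Cre plus C, and 7 when the probe sets of each gene were averaged. With an array left out fewer arrays had to separate. The share of all genes in these settings is not given here, and the 11.9% does not apply to them. An exact permutation test of 3 arrays against 3 cannot give a p under 0.1, which is its value for these 11 genes. In bulk liver, fewer cells of a type and less RNA per cell cannot be told apart.

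**Figure D1:**
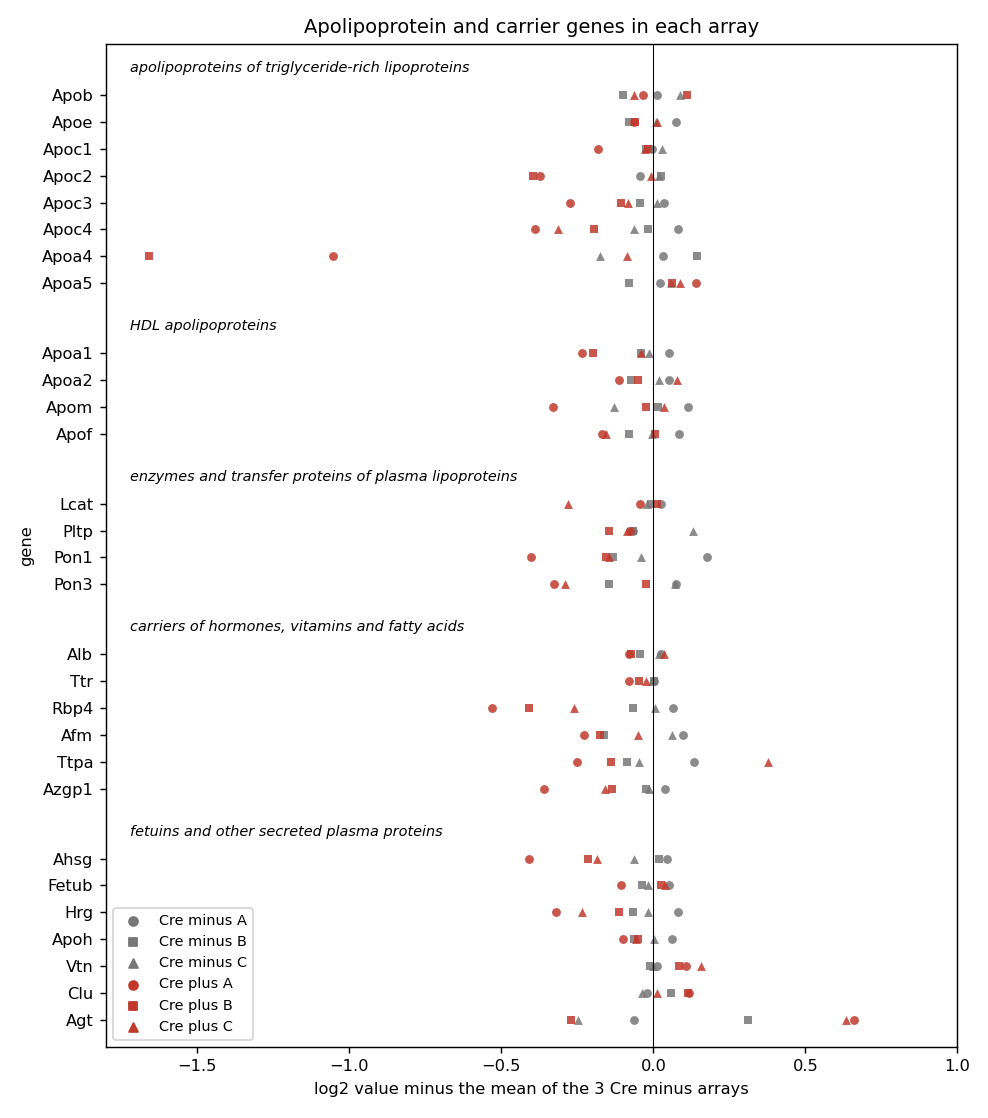
Log2 value of each of the 29 measured genes in each array (horizontal axis) after subtracting the mean of the 3 Cre minus arrays, with genes in rows by role. Grey marks are Cre minus and red marks Cre plus arrays, with circles for A, squares for B and triangles for C. Most red marks lie left of 0 by less than 0.5, and Apoa4 has 2 red marks beyond -1.

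The arrays did not share in this equally. Cre plus A was the lowest of the 6 arrays in 19 of the 29 genes (65.5%, against 18.5% of all genes tested), while Cre plus B was lowest in 4 and Cre plus C in 1. Cre minus A was the highest of the 6 in 17 of the 29 (58.6%, against 23.8%). On the log2 scale, the median distance of the 29 genes from their Cre minus mean was -0.18 in Cre plus A, while in arrays B and C of that group it was -0.07 and -0.05. Without Cre plus A the median log2 fold change of the 29 was -0.07, without Cre minus A it was -0.08, and in both cases it stayed below the median of all genes (-0.02 and -0.0018). The count of 24 lower members was 20 without Cre plus A, 21 without Cre minus A and 24 or 25 without any other array. Without Cre minus A, Rbp4 and Apoc4 were the 2 members left at an unadjusted p under 0.05 (4.50% of all genes were lower). Without Cre minus C there were 3, with Ahsg added (5.85% of all genes were lower). Rbp4 and Apoc4 were listed in every setting run. Without Cre plus B, the array nearest to Cre minus, the median of the 29 was -0.14 and 6 members were listed as lower (10.03% of all genes were lower). Summed neutrophil marker signal was also highest in Cre plus A, at a log2 of 10.76 against 9.03 to 9.32 in the other 5 arrays, and its part in these values was not tested.

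Rbp4 and Apoc4 had the lowest p-values of the group. Rbp4 encodes the plasma carrier of retinol, which circulates bound to transthyretin. Its log2 values, given like those below in the order of arrays A, B, C, were 13.86, 13.73 and 13.80 in Cre minus and 13.27, 13.39 and 13.53 in Cre plus. The groups did not overlap and all 3 Cre plus arrays were low. The log2 fold change was -0.40 ± 0.09 (limma's SE), a Cre plus signal of 75.8% of Cre minus, with a 95% interval of 65.5% to 87.7% (adjusted p = 0.164, limma). Apoc4, a small apolipoprotein of VLDL, gave 12.89, 12.79 and 12.74 in Cre minus and 12.41, 12.61 and 12.49 in Cre plus. Again no Cre plus array reached the lowest Cre minus array. Its log2 fold change was -0.30 ± 0.08, 81.2% of Cre minus, with an interval of 71.4% to 92.4% (adjusted p = 0.193, limma).

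Ahsg, Hrg and Azgp1 followed, with differences of about the same size. Ahsg encodes fetuin-A, an abundant plasma protein that binds calcium phosphate; its values were 13.91, 13.89 and 13.81 in Cre minus and 13.46, 13.65 and 13.69 in Cre plus, with Cre plus A lowest. The log2 fold change was -0.27 ± 0.08 (adjusted p = 0.238, limma). Hrg, histidine-rich glycoprotein, gave 13.11, 12.96 and 13.01 in Cre minus and 12.70, 12.91 and 12.79 in Cre plus. Its log2 fold change was -0.22 ± 0.08 (adjusted p = 0.287, limma), from a single probe set of a kind that can also bind related transcripts. The gap between the groups was narrow here, since Cre plus B lay just under Cre minus B. Azgp1, zinc alpha-2-glycoprotein, gave 13.11, 13.05 and 13.06 in Cre minus and 12.71, 12.94 and 12.92 in Cre plus, so its log2 fold change was also -0.22 ± 0.08 (adjusted p = 0.287, limma). Its Cre minus arrays lay close together and Cre plus A stood below the other Cre plus arrays.

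The promoter sequences of these 5 genes are shown because they are the members with the lowest p, and 3 of the 5 hold letters that resemble binding motifs of hepatocyte factors. Each run is the 250 bases before the annotated start, 5′ to 3′ on the strand of the gene, from RefSeq (GRCm38.p6): Rbp4 at chr19:38125322-38125571, minus strand (the farther upstream of 2 listed starts), Apoc4 at chr7:19681461-19681710, minus strand, Ahsg at chr16:22891765-22892014, plus strand, Hrg at chr16:22950822-22951071, plus strand and Azgp1 at chr5:137981271-137981520, plus strand. Capitals mark matches to any of the 4 motifs searched on both strands.
Rbp4: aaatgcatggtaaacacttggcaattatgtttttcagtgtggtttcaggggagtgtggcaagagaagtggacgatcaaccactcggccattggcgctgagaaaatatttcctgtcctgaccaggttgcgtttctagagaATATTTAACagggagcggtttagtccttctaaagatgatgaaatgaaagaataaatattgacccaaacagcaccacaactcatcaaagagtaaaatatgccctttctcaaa
Apoc4: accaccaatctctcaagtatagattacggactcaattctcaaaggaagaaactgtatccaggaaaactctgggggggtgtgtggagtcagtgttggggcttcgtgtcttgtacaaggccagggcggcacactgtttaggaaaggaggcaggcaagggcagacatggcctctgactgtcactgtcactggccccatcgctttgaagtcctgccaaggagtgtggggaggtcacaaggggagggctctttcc
Ahsg: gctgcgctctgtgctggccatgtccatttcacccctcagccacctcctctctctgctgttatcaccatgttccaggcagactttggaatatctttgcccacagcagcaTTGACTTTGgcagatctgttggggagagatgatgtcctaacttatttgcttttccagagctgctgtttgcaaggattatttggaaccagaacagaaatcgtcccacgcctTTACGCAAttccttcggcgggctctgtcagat
Hrg: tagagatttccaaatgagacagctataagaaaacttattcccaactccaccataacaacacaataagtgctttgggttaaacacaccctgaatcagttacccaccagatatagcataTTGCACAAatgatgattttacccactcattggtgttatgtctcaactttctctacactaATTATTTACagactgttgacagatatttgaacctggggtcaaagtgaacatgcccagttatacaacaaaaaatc
Azgp1: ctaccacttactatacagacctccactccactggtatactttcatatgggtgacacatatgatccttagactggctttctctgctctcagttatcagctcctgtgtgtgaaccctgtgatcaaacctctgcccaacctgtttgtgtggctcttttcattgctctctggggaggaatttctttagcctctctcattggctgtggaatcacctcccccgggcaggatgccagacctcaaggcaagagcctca
In Rbp4 the capitals are a match to HNF1 (GTTAATNAT, up to 1 mismatch) that lies 111 to 103 bases before the start. Ahsg holds a match to HNF4 (CAAAGTCCA, up to 1 mismatch) 142 to 134 bases before the start and one to C/EBP (TTGCNNAA) 32 to 25 bases before it. Hrg holds a C/EBP match 133 to 126 and an HNF1 match 74 to 66 bases before the start. The windows of Apoc4 and Azgp1 hold none of the 4, and at the other Rbp4 start the window holds a C/EBP match.

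Of the measured genes, 23 had an entry in the promoter table, with 29 annotated starts. The HNF1 motif was found at 7 of these 29 starts (24.1%, against 11.9% of 32851 promoters in the table), HNF4 at 5 (17.2%, against 7.05%), C/EBP at 9 (31.0%, against 9.56%) and STAT (TTCNNNGAA) at 1, that of Agt (3.45%, against 7.02%). Starts of the same gene share bases, and a match is a description of the letters only. Of the genes of the factors that bind these motifs, Hnf4a had a log2 fold change of 0.11 ± 0.06, Cebpa -0.34 ± 0.22, Cebpb 0.51 ± 0.07, Cebpd 0.93 ± 0.23 and Stat3 0.52 ± 0.08. None passed limma's test over all genes (adjusted p = 0.458, 0.513, 0.0785, 0.191 and 0.0918). In Cebpb, Cebpd, Stat3 and Hnf4a every Cre plus array was above every Cre minus array, as in 9.21% of all genes. Cebpa, Cebpd and Hnf4a were added after their values were seen. Of the 20 hepatocyte transcription factors measured, 5 were above in this way and 5 below (9.21% and 11.9% of all genes). No HNF1 gene was among the 20.

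**Figure D2:**
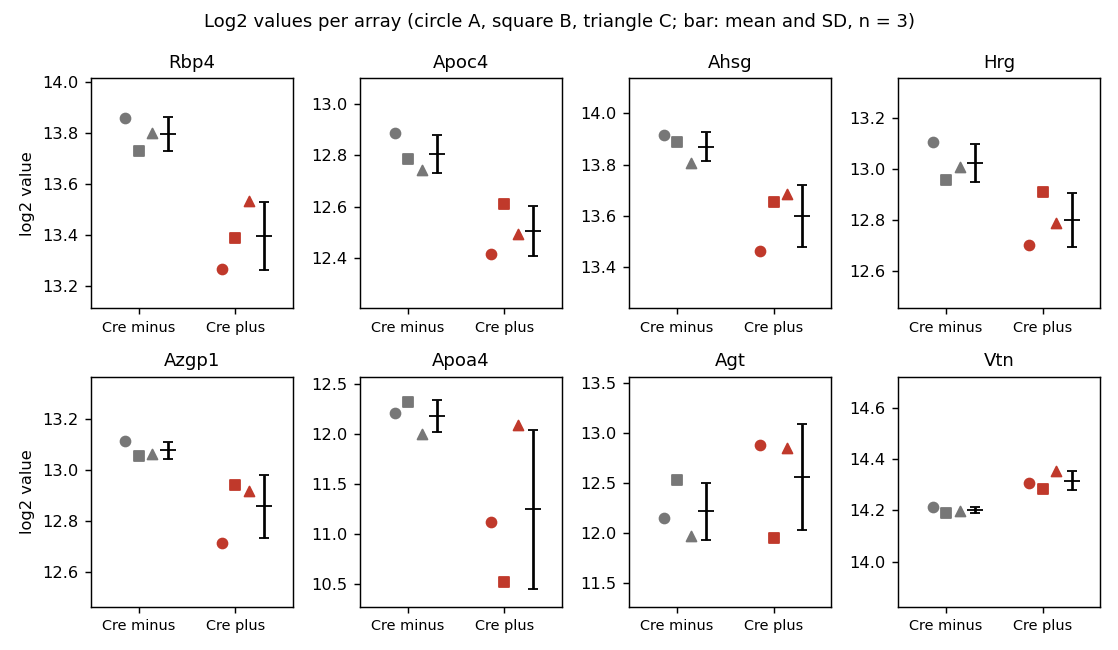
Log2 values per array for Rbp4, Apoc4, Ahsg, Hrg, Azgp1, Apoa4, Agt and Vtn, with the group mean and SD (n = 3) beside the points; the vertical axes span a wider range for Apoa4 and Agt. The groups do not overlap in the first 5 genes or in Vtn, while Cre plus C lies among the Cre minus arrays in Apoa4 and Cre plus B lies just under them in Agt.

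Among the apolipoproteins of triglyceride-rich particles, Apoa4 had the lowest fold change and Apob the one nearest to 0. Apoa4 encodes a lipid-binding apolipoprotein of intestine and liver. Its values were 12.21, 12.33 and 12.01 in Cre minus and 11.13, 10.52 and 12.10 in Cre plus. Cre plus A and B were well below all Cre minus arrays and Cre plus C was among them. The log2 fold change of -0.93 ± 0.39 (adjusted p = 0.345, limma) therefore rests on 2 arrays, and it went from -0.57 with Cre plus B left out to -1.36 with Cre plus C left out (adjusted p = 0.385 and 0.148). A second Apoa4 probe set showed the same order of arrays within Cre plus, at 10.94, 10.39 and 11.70. Apob, the backbone of VLDL, was at 14.18 ± 0.09 in Cre minus and 14.18 ± 0.09 in Cre plus (log2, SD, n = 3), and the 95% interval of its log2 fold change ran from -0.19 to 0.20. Apoe, the ligand that brings remnant particles to their receptors, had a log2 fold change of -0.04 ± 0.06 (interval -0.19 to 0.12).

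The C apolipoproteins govern how fast triglyceride is removed from these particles. Apoc2, the cofactor of lipoprotein lipase, gave 12.39, 12.46 and 12.45 in Cre minus and 12.06, 12.04 and 12.43 in Cre plus. As in Apoa4, Cre plus C was close to the Cre minus arrays and the other 2 were low, and the log2 fold change was -0.26 ± 0.12 (adjusted p = 0.368, limma) with all arrays and -0.38 without Cre plus C (adjusted p = 0.148). Apoc3, an inhibitor of the same lipase, gave 14.24, 14.16 and 14.22 in Cre minus and 13.93, 14.10 and 14.12 in Cre plus. The groups did not overlap, and the log2 fold change was -0.15 ± 0.07 (adjusted p = 0.385), or -0.095 without Cre plus A. Apoc1 had -0.08 ± 0.07, with Cre plus B inside the Cre minus range. Apoa5, which promotes triglyceride clearance, had a higher value in all 3 Cre plus arrays, at 14.20, 14.12 and 14.14 over 14.08, 13.98 and 14.11 in Cre minus. The margin was narrow, a log2 fold change of 0.10 ± 0.06 (adjusted p = 0.513), or 0.056 without Cre minus B.

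Several of the genes lie in clusters, and fold changes varied along them. In the order of the RefSeq annotation, Apoc2, Apoc4, Apoc1 and Apoe lie next to each other on chromosome 7, and their log2 fold changes in that order were -0.26, -0.30, -0.08 and -0.04. On chromosome 9, Apoa1, Apoc3, Apoa4 and Apoa5 lie in a row with -0.16, -0.15, -0.93 and 0.10. On chromosome 16, Ahsg, Fetub and Hrg lie in a row with -0.27, -0.01 and -0.22. The middle gene, which encodes fetuin-B, thus had a difference near 0 (interval -0.17 to 0.15) between flanking genes whose groups did not overlap. Pon1 and Pon3, adjacent on chromosome 6, had -0.24 and -0.21. Differences between neighbours were not tested.

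The 4 HDL apolipoproteins had lower mean values in Cre plus, and in none were the groups separate. Apoa1, the main protein of HDL, gave 15.57, 15.47 and 15.50 in Cre minus and 15.28, 15.31 and 15.47 in Cre plus. Cre plus C lay at the level of the lowest Cre minus array, and the log2 fold change was -0.16 ± 0.07 (adjusted p = 0.383, limma). Apof had -0.11 ± 0.08, Apom, the HDL carrier of sphingosine 1-phosphate, -0.11 ± 0.12, and Apoa2 -0.03 ± 0.07. The last 2 changed sign without Cre plus A (0.0070 for Apom and 0.015 for Apoa2), and Apoa2 also with quantile normalization (0.033).

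The enzymes that remodel lipoproteins were also lower by small amounts, with log2 fold changes from -0.24 to -0.10 in the 4 measured. Pon1, the HDL-bound paraoxonase, gave 12.99, 12.68 and 12.77 in Cre minus and 12.41, 12.66 and 12.67 in Cre plus. The groups did not overlap, although Cre plus B and C lay within 0.1 of Cre minus B, and the log2 fold change was -0.24 ± 0.11 (adjusted p = 0.402, limma), or -0.15 without Cre minus A and -0.15 without Cre plus A. Pon3 had -0.21 ± 0.11, with Cre plus B inside the Cre minus range. Lcat, which esterifies HDL cholesterol, had -0.10 ± 0.09, and only Cre plus C, at 11.69, was outside the Cre minus range by more than 0.1, being lower; without it the value was -0.015. Pltp, the phospholipid transfer protein, which macrophages also express, gave 10.12, 10.12 and 10.32 in Cre minus and 10.11, 10.04 and 10.10 in Cre plus. The groups were barely apart, at a log2 fold change of -0.10 ± 0.07, or -0.037 without Cre minus C.

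Alb and Ttr, the genes of the main plasma carriers, had differences close to 0 on the probe sets used. Alb was at 15.31 ± 0.04 in Cre minus and 15.27 ± 0.06 in Cre plus (log2, SD, n = 3), and the interval of its log2 fold change ran from -0.19 to 0.11. Ttr, the carrier of thyroxine and of the retinol binding protein, gave 15.16, 15.16 and 15.15 in Cre minus and 15.08, 15.11 and 15.13 in Cre plus. The groups did not overlap, but the log2 fold change was -0.05 ± 0.05 (interval -0.17 to 0.07). This probe set is of a kind that can also bind related transcripts. The only Ttr probe set not of such a kind gave -0.17, also with groups apart, and all Ttr probe sets are given below. Afm, a vitamin E binding relative of albumin, had -0.15 ± 0.09. Ttpa, the alpha-tocopherol transfer protein, which works inside the hepatocyte and is not secreted, had -0.01 ± 0.18; its Cre plus arrays spread on both sides of the Cre minus range, from 12.68 in A to 13.31 in C.

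The remaining plasma proteins included 3 of the 5 genes with higher means. Vtn encodes vitronectin, an adhesion protein of plasma and matrix, and gave 14.21, 14.19 and 14.20 in Cre minus and 14.31, 14.28 and 14.36 in Cre plus. All 3 Cre plus arrays were above all Cre minus arrays by a small margin, a log2 fold change of 0.12 ± 0.05 (adjusted p = 0.366, limma). Clu, clusterin, an extracellular chaperone, had 0.08 ± 0.06, with Cre plus C inside the Cre minus range. Agt, angiotensinogen, gave 12.15, 12.53 and 11.97 in Cre minus and 12.88, 11.95 and 12.85 in Cre plus. Cre plus A and C were high and Cre plus B was the lowest of all 6, so the log2 fold change was 0.34 ± 0.29 (adjusted p = 0.618). It ranged from 0.18 without Cre plus A to 0.65 without Cre plus B (adjusted p = 0.856 and 0.162). Apoh, beta-2-glycoprotein I, had -0.07 ± 0.06. Over all 29 genes, 22 (75.9%) had the larger SD among the Cre plus arrays, against 63.1% of all genes tested.

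Several of these genes had signals near the top of the scale. The highest value in the table was 15.7, and 11 of the 29 genes had a mean log2 value over 14: Apob, Apoe, Apoc3, Apoa5, Apoa1, Apoa2, Alb, Ttr, Apoh, Vtn and Clu. Their median absolute log2 fold change was 0.07, against 0.22 in the 18 dimmer members. Among all genes tested, the median absolute log2 fold change was 0.05 in the 58 genes over 14 and 0.09 in the 275 genes from 12 to 14. The 58 still spanned log2 fold changes from -0.69 to 0.46. All 5 members with an unadjusted p under 0.05 were among the dimmer 18. Whether the probes of the bright genes were saturated was not tested, and a small difference there does not show that the RNA was equal.

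**Figure D3:**
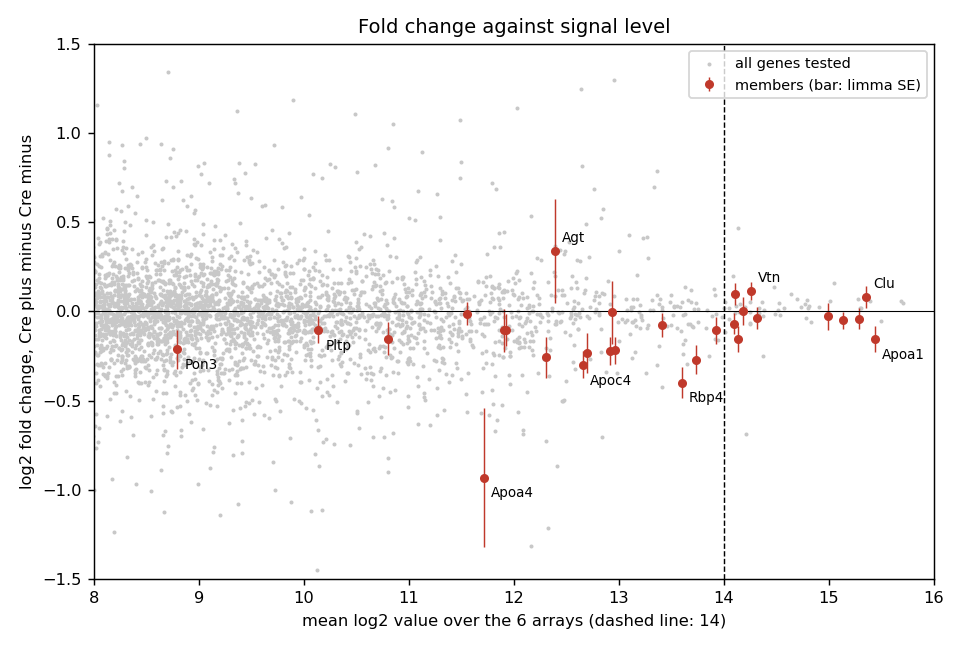
Log2 fold change (vertical axis) against mean log2 value over the 6 arrays (horizontal axis), with all genes tested in grey and the 29 members in red with limma's SE. The axes start at 8 and stop at a fold change of 1.5 in either direction, which leaves out 5313 genes, none of them a member; the cloud narrows to the right of the dashed line at 14, where 11 members lie.

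For 9 of the genes a second or further probe set passed the filter, and 33 of the 44 probe sets of the 29 genes past the filter had lower values in Cre plus. The 4 probe sets of Apoa1, between 14.95 and 15.43, gave differences from -0.16 to -0.13. Those of Clu, between 13.31 and 15.35, gave 0.07 to 0.10, and those of Vtn, at 13.45 and 14.26, gave 0.16 and 0.12, with groups apart on both. For Ttr the dimmest of 4, at 14.10, gave -0.17 with values of 14.25, 14.11 and 14.18 in Cre minus and 13.92, 14.05 and 14.07 in Cre plus. It is the only one of the 4 not of a kind that can also bind related transcripts. The other Ttr probe sets gave -0.05, -0.03 and 0.00, so the size of the Ttr difference depends on the probe set. It also did for Apob, where a dimmer probe set, at 10.03, gave 0.33, with Cre plus C at 10.69 against 9.81 to 9.96 in the other 5 arrays. A dimmer Pltp probe set, at 7.17, gave -0.23 with groups that overlapped, and a dimmer Afm probe set, at 9.66, gave -0.23.

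**Figure D4:**
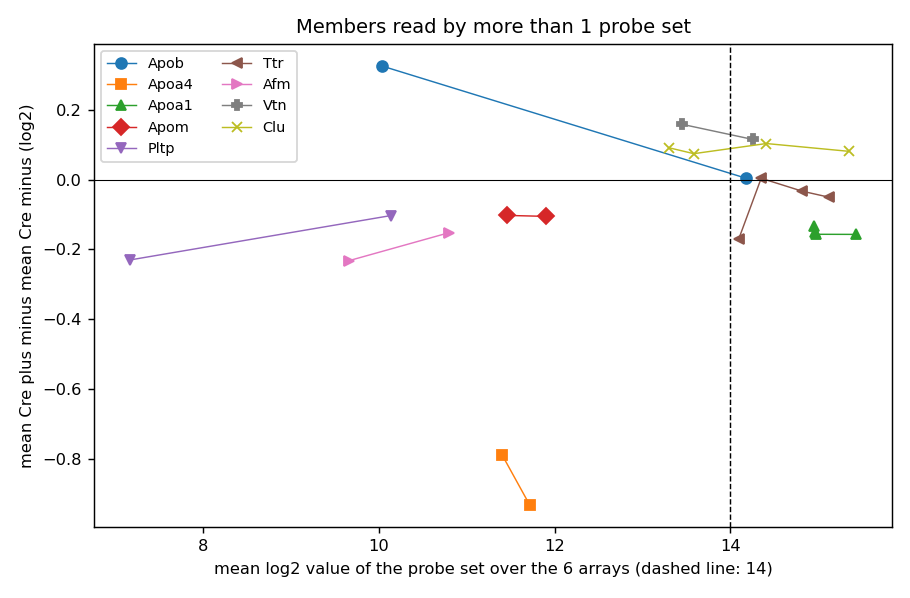
Difference between the Cre plus and Cre minus means (vertical axis, log2) against the mean log2 value of the probe set (horizontal axis) for the 9 genes with more than 1 probe set past the filter; a line joins the probe sets of a gene. Apoa1, Apom, Clu, Vtn, Afm, Pltp and Apoa4 keep their sign on every probe set, and Ttr and Apob reach values at or near 0 on one of theirs.

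Genes that build, load and clear lipoproteins were looked at beside the members. Of 15 measured genes of lipoprotein assembly and secretion, 9 had lower and 6 higher values, with a median of -0.06, and 0 passed over all genes. At an unadjusted p under 0.05 limma listed 4 lower and 1 higher (8.21% of all genes were lower and 6.62% higher). The examples by smallest p were Dgat2, which makes triglyceride (-0.50 ± 0.12), Cideb, which helps to lipidate VLDL (-0.36 ± 0.10), and Sar1b, a GTPase of the vesicles that carry it out of the endoplasmic reticulum (-0.18 ± 0.06). Of 8 receptor and clearance genes, 5 were lower and 3 higher, with a median of -0.01 and 0 past the threshold over all genes. At an unadjusted p under 0.05, 1 was higher, the lipolysis-stimulated receptor Lsr (0.22 ± 0.08), against 6.62% of all genes. Sdc1, a proteoglycan that takes up remnants, had 0.29 ± 0.12, and Gpihbp1, the endothelial anchor of lipoprotein lipase, -0.18 ± 0.15. Among 6 lipases and their regulators 5 were lower, with a median of -0.20 and 0 past the threshold over all genes. Beside 8.21% of all genes, 2 of the 6 were lower at an unadjusted p under 0.05. These were the lysosomal lipase Lipa (-0.51 ± 0.13) and Angptl8, an inhibitor of lipoprotein lipase (-1.15 ± 0.36); the lipase maturation factor Lmf1 had -0.27 ± 0.17.

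Partners of APOA1 and of the retinol carrier included larger differences, none past limma's threshold over all genes. Of 5 sterol efflux genes, 4 were lower and 1 higher (median -0.22). At an unadjusted p under 0.05 limma listed 2 lower and 1 higher (8.21% of all genes were lower and 6.62% higher). Abca1, which loads APOA1 with cholesterol, had 11.40, 11.53 and 11.35 in Cre minus and 12.27, 11.94 and 12.24 in Cre plus, a log2 fold change of 0.72 ± 0.11 (adjusted p = 0.0985, limma). All Cre plus arrays were high. Abcg5, which exports sterol into bile, had 8.61, 8.37 and 8.51 in Cre minus and 7.45, 7.27 and 7.77 in Cre plus, a Cre plus signal 0.499 times that of Cre minus (adjusted p = 0.0866). All 3 were low. Nr1h3, the sterol-sensing receptor LXR alpha, had -0.22 ± 0.09. Of 8 genes of retinoid handling, 4 were higher and 4 lower (median -0.0046). There was 1 in each direction at an unadjusted p under 0.05, beside 8.21% of all genes lower and 6.62% higher. Bco1, which cleaves beta-carotene, had 1.09 ± 0.35, Dhrs3, which reduces retinal, -0.56 ± 0.22, and Rdh11 0.36 ± 0.19.

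Of 20 measured transcription factors of hepatocytes, 13 were lower and 7 higher (median -0.05), with 0 past the threshold over all genes and 3 in each direction at an unadjusted p under 0.05. Those 3 of 20 stand beside 8.21% of all genes lower and 6.62% higher. Besides Cebpb and Stat3, given above, the smallest p was that of Nr1i3, the receptor CAR, at -0.76 ± 0.12. Secreted proteins of the positive acute phase response, which the liver makes more of in inflammation, had values on the other side of 0. Of 21 measured, 20 were higher and 1 lower, with a median of 0.06, 0 past the threshold over all genes and 2 higher at an unadjusted p under 0.05. Those 2 of 21 stand beside 6.62% of all genes. In 8 of the 21 every Cre plus array was above every Cre minus array, which held for 9.21% of all genes. A2m had 1.30 ± 0.17, Saa4 0.53 ± 0.17 and Serpina3n 0.14 ± 0.06. The 13 of them over 14 had a median of 0.05 and the other 8 a median of 0.26. The difference between the 2 groups of secreted proteins was not tested.

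Markers of the cell types in the samples were read beside these values, and none passed limma's threshold over all genes; at an unadjusted p under 0.05, 4 hepatocyte, 7 Kupffer cell and 4 endothelial markers were lower, of 12, 12 and 10 measured (8.21% of all genes were), and 1 of 9 stellate cell markers was higher (6.62% of all genes were). Of the 12 hepatocyte markers measured, none of them members, 10 were lower and 2 higher (median -0.14), all were above the filter, and their summed signal on the log2 scale was 16.67 to 16.76 in Cre minus and 16.61 to 16.75 in Cre plus. Signals were summed before the log2 was taken, so Ambp, Cyp2e1 and Arg1, with means over 14, weigh most. Whether the sums follow hepatocyte content was not tested. Ambp and Cyp2e1, named for their signal, had 0.10 and -0.06. Kupffer cell and macrophage markers were lower in 12 of 12 measured (median -0.35), with a summed signal of 12.18 to 12.28 against 11.75 to 12.01 and Timd4 at background. Cd5l and C1qb, the brightest, had -0.31 and -0.18. Apoe and Pltp are also expressed by macrophages, and the part of those cells in their values was not tested. Endothelial markers were lower in 9 of 10 (median -0.24), with a summed signal of 11.55 to 11.74 against 11.25 to 11.53 and Cdh5 at background; Clec4g and Fcgr2b, the brightest, had -0.35 and -0.54. Stellate cell and fibroblast markers were higher in 5 of 9 (median 0.06; 11.26 to 11.34 against 11.28 to 11.61; Col1a2 at background). Dcn and Rgs5, the brightest, had 0.12 and 0.50, and the groups were apart in Rgs5. Of the cholangiocyte list, Krt7, Krt19, Epcam, Cldn7, Cftr and Tspan8 were at background and 1 of 7 genes with a probe set, Sox9 (0.38 ± 0.23), passed the filter, with a summed signal of 6.57 to 6.81 against 6.77 to 7.24. All 10 T, B and NK cell markers with a probe set were at background (6.32 to 6.37 against 6.27 to 6.32). Of the erythroid list 1 gene, Alas2 (0.03 ± 0.12), passed (8.40 to 8.53 against 8.30 to 8.71), with Hba-a1 and Slc4a1 at background, and of the neutrophil list 2 passed, S100a8 (0.49 ± 0.49) and S100a9 (0.38 ± 0.41), with Camp, Csf3r, Cxcr2, Mmp8 and Ngp at background. Background here means a mean log2 value under 4 over the 6 arrays, and none of the genes named so passed the filter.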

How the data were processed

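Biotin-labelled total RNA (2 ug per array) was hybridised to 6 arrays, per the labels' protocols. Per the submitters' processing notes, the authors used GCRMA, whose version is not stated there; the values they deposited are log2 signals, 1 for each probe set. GCRMA models background from probe sequence and brings the single-probe values of the arrays to a common distribution. The probe set values analysed here need not share one exactly. Of 45101 probe sets, 64 controls were left out. Symbols came from the platform annotation (34958 probe sets with 1 gene, 932 with several, 9211 with none here), checked by Entrez ID against RefSeq genes of GRCm38.p6. Probe sets over a log2 value of 4 in at least 3 of 6 arrays were kept, and the brightest kept single-gene probe set stood for a gene. The groups were compared in limma 3.58.1 under R 4.3.3, two-sided, no block, with Benjamini-Hochberg adjustment over all 8554 genes; intervals are 95%. The fit was tested on simulated data with changes of 1 on the log2 scale, larger than that of any member. That test does not cover differences of the members' size. Arrays have no read depth, and their number limits precision. Every member is described; members with an unadjusted p under 0.05 or separate groups are given by array, up to 3 genes by smallest p are named from each pathway or regulator list, and the 2 brightest past the filter from each marker list; Cebpa, Cebpd and Hnf4a were added after their values were seen. Members and lists were chosen with earlier results of these data known. Motif searches used the 250 bases before each start. Letters A, B and C were not taken as pairs. The alternatives were arrays shifted to one median, quantile normalization, a filter at 6 or none, a trended robust prior, other probe sets per gene, array weights, a replicate block and each array left out.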

Additional observations from a re-analysis of the deposited data

How the results depend on the processing

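The count of members past an adjusted p under 0.05 was 0 under all 16 alternatives, where limma's smallest adjusted p of a member ranged from 0.110 to 0.452; among all genes the count was 2 in the main analysis, 56 with a filter at 6, 13 without Cre plus B and 0 with no filter, with the replicate block and without any 1 Cre minus array. Of 463 values of single members under the alternatives, 449 kept their sign, and 23 of the 29 members kept it in every one run. The other 14 were in Apob, Apoe, Apoa2, Apom, Ttpa and Fetub, whose log2 fold changes in the main analysis ran from -0.11 (Apom) to 0.00 (Apob). Apob was -0.011 with quantile normalization and -0.011 with array weights, Apoa2 0.033 with quantile normalization and Ttpa 0.0032 with arrays shifted to a common median. Leaving out single arrays gave -0.049 to 0.047 for Apob, -0.077 to 3.3e-05 for Apoe, -0.082 to 0.015 for Apoa2, -0.18 to 0.0070 for Apom, -0.20 to 0.12 for Ttpa and -0.040 to 0.032 for Fetub. The count of members lower at an unadjusted p under 0.05, 5 in the main analysis, was 9 with array weights and 3 with the replicate block. It ranged from 2 to 7 with single arrays left out. Of all genes, 8.21% were lower at that p in the main analysis, 8.53% with array weights and 7.14% with the replicate block. With single arrays left out, 4.50% to 10.03% of all genes were. The count of higher members, 0 in the main analysis, was 1, Vtn, with no filter, with the trended robust prior, with the mean of all probe sets and with the dimmest probe set; it was 0 to 1 with single arrays left out, the 1 being Agt without Cre plus B. Members with every Cre plus array below every Cre minus array numbered 9 to 15 with single arrays left out, where fewer arrays had to separate, 7 with averaged probe sets, 7 when _x_at and _s_at kinds were dropped, 8 with a common median and 8 with the dimmest probe set. Members with every Cre plus array above numbered 1 with quantile normalization and 2 to 3 with single arrays left out. For the counts of higher members and of separate groups, the shares of all genes under the alternatives are not given here. Causes were not tested. The members' median was -0.14 to -0.07 with single arrays left out. Hrg has no value without the _x_at and _s_at probe sets.

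Arrays with the same letter did not deviate together (correlations of deviations -0.15, -0.10 and 0.02 for A, B and C), and no array correlated best with its own letter, so the replicate block is not a pairing given by the design. With 3 arrays a group, 24 of the 29 intervals lie within 0.5 of 0, and smaller differences may go undetected. Whether signal near the top of the scale limits the 11 bright members was not tested; signal near background limits the lymphocyte, cholangiocyte, neutrophil and erythroid lists.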
